A study of Homo sapiens with 6 samples.

Results

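Serpin genes were examined in RNA sequencing of HCCLM3 cells, taking every gene of the deposited table whose symbol is SERPIN followed by a clade letter from A to I and a number. Of the 35856 genes listed, 23 met this rule and 22 are described, over which every count, sum and share of serpins below is taken. A further 2 listed symbols, SERPINB9P1 and SERPINH1P1, belong to pseudogenes and were not members. HCCLM3 is a long-used human cell line of hepatocellular carcinoma with high metastatic capacity. The comparison was between 3 libraries from cells transfected with a vector carrying the long non-coding RNA LINC00862 (group LINC00862) and 3 libraries labelled NC (group NC), with the empty vector as the only other transfection the labels name and no other treatment named for either group. It asked which transcripts changed when LINC00862 was overexpressed. The labels do not say whether the libraries came from separate cultures, or whether each vector was carried by a clone or by a pool of cells, so the p-values measure only the spread between these libraries.

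Serpins are a superfamily of proteins in which most members inhibit serine proteases, and a few inhibit cysteine proteases. A protease that cuts the exposed reactive centre loop of an inhibitory serpin is trapped in a covalent complex and distorted, so each inhibitor molecule is used once. The liver is the main source of the plasma serpins, among them antitrypsin (SERPINA1) and antithrombin (SERPINC1). Clade B serpins mostly stay inside the cell, SERPINE2 and SERPINI1 restrain proteases such as thrombin and the plasminogen activators outside it, and SERPINH1 inhibits no protease but folds collagen in the endoplasmic reticulum.

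The total counts lay between 58241123 and 68229070 per library. LINC00862 itself had counts of 11, 21 and 6 in the NC libraries and of 145, 121 and 76 in the LINC00862 libraries, so the labels and the overexpressed gene went together. The rank correlation of FPKM (fragments scaled for gene length and for the size of the library), taken over genes, which do not count as replicates, was 0.896 to 0.909 within a group and 0.754 to 0.767 between the groups. The LINC00862 transcript was low in both groups, with a mean of 0.0507 FPKM in NC and 0.449 FPKM in LINC00862. Its log2 fold change was 3.22 (SE 0.53). The groups stood far apart in markers of cell identity. Summed over 7 hepatocyte markers, the FPKM was 1.72 to 1.94 in the NC libraries and 539 to 618 in the LINC00862 libraries, with 6 of 6 tested markers higher and APOA1 not tested. Fibrinogen beta (FGB) made up most of that sum with a mean of 550 FPKM in LINC00862, whereas albumin (ALB) was near 0 in NC and reached 1.51 FPKM in LINC00862, and APOA1 was near 0 in both groups, so these defining hepatocyte genes were low in cells labelled as hepatoma cells. For 6 epithelial markers the sum was 194 to 287 in NC and 482 to 551 in LINC00862, with 5 of 6 higher. For 7 mesenchymal markers it was 550 to 633 in NC and 13.9 to 18.7 in LINC00862, with 5 of 7 lower. Vimentin (VIM) made up most of the NC sum, at 539 FPKM in NC and 3.77 FPKM in LINC00862. COL1A1, also in this list, was higher, at 2.43 FPKM in NC and 10.6 FPKM in LINC00862. The 4 endothelial markers summed to 1.17 to 1.74 FPKM in NC and 4.44 to 5.89 FPKM in LINC00862, and the 5 leukocyte markers to 2.82 to 3.60 FPKM and 9.08 to 15.1 FPKM. These shifts lay between the same groups as every serpin comparison that follows, and their part in the serpin results was not tested. An effect of LINC00862 and a difference between the transfected populations cannot be told apart in this design, and in bulk RNA neither can fewer cells of a type and less RNA per cell.

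Overexpression of LINC00862 went with serpin RNA levels that moved in both directions rather than in a common one. SERPINE2, an inhibitor of thrombin and urokinase, and the collagen chaperone gene SERPINH1 fell, as did SERPINA1, SERPINB9, SERPINB8 and SERPINB2. SERPINB1, the neuroserpin gene SERPINI1, SERPINB4, SERPINA3 and SERPINA5 rose. The counts were compared by the quasi-likelihood test of edgeR, p-values were adjusted over all genes by the Benjamini-Hochberg method, and genes under 0.05 were called. Of the 22 serpins, 18 had enough counts to be tested and 11 of these were called. That is close to the background, since 64.2% of the 20741 genes tested were called in this comparison. Of the 18, 5 were higher in LINC00862 against a background of 34.4%, 6 were lower against 29.8%, and 7 did not pass. The FPKM of the groups did not overlap for 12 of the 18, against 71.1% of all genes tested. The median log2 fold change was -0.32 over the 18 serpin genes and 0.11 over all genes tested. Among called genes, the median size of the change was 8.59-fold for the 11 serpins and 3.80-fold over all genes. Both medians cover only genes that passed, and SERPINA3 and SERPINA5 had just 2 and 4 counts summed over NC. Whether serpins changed more than other genes was not tested. With 3 libraries in each group the smallest p of an exact two-sided permutation test on 1 gene is 0.1, and all 12 genes without overlap had this value.

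**Figure D1:**
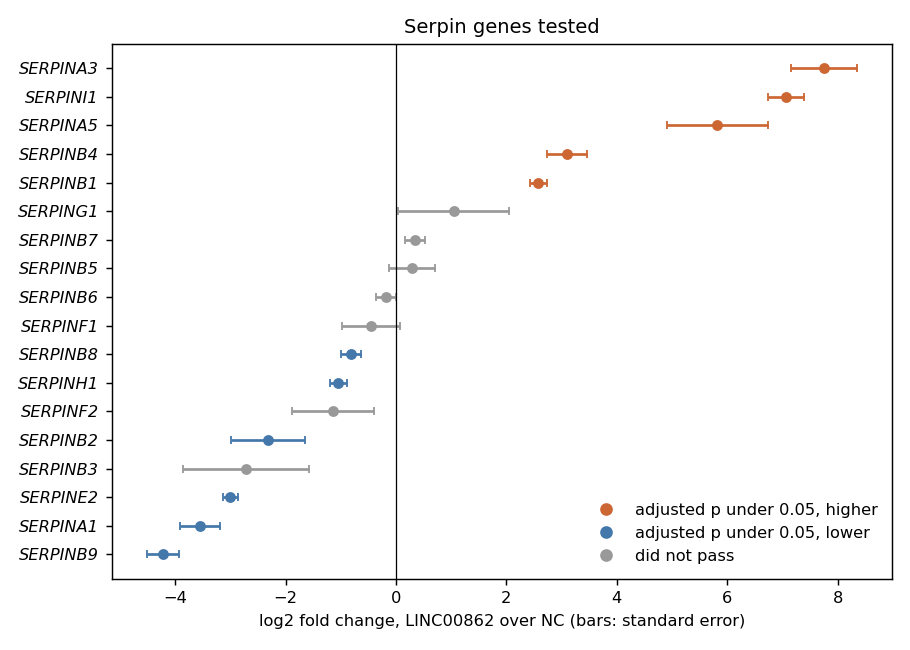
Log2 fold change of LINC00862 over NC (horizontal axis) for the 18 serpin genes tested, with bars for the standard error and colours for the call at an adjusted p of 0.05. The values run from -4.22 for SERPINB9 to 7.75 for SERPINA3, with 5 genes called higher and 6 called lower.

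Summed over the 22 genes, the direction depended on the scale. They took 538, 526 and 599 CPM (counts scaled to library size) in the NC libraries and 477, 467 and 393 CPM in the LINC00862 libraries. Their summed FPKM, which also scales for gene length, was 75.4, 70.6 and 78.4 in NC and 105, 102 and 85.1 in LINC00862. The groups did not overlap on either scale, with the LINC00862 libraries lower in CPM and higher in FPKM. The composition changed as well. Clade B, the intracellular serpins, held 43.8% ± 2.01 (SD, n = 3) of the summed FPKM in NC and 69.3% ± 0.769 (SD, n = 3) in LINC00862. SERPINH1 alone accounted for 33.4% ± 2.69 (SD, n = 3) in NC and 11.2% ± 0.601 (SD, n = 3) in LINC00862, SERPINE2 for 20.04% ± 1.05 (SD, n = 3) and 1.71% ± 0.0467 (SD, n = 3). SERPINB1, itself in clade B, went the other way, from 11.7% ± 0.399 (SD, n = 3) to 47.7% ± 2.88 (SD, n = 3). The larger share of clade B rested on this gene. SERPINB4 also rose, from a mean of 0.442% to 2.57%. The means of SERPINB6 (11.1% to 6.75%), SERPINB7 (10.8% to 9.30%) and SERPINB8 (6.22% to 2.38%) fell. SERPINI1 went from 0.174% ± 0.0718 (SD, n = 3) to 16.4% ± 0.268 (SD, n = 3). Without scaling for length, as shares of the summed CPM, SERPINI1 held 8.61% and SERPINE2 3.77% in LINC00862.

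**Figure D2:**
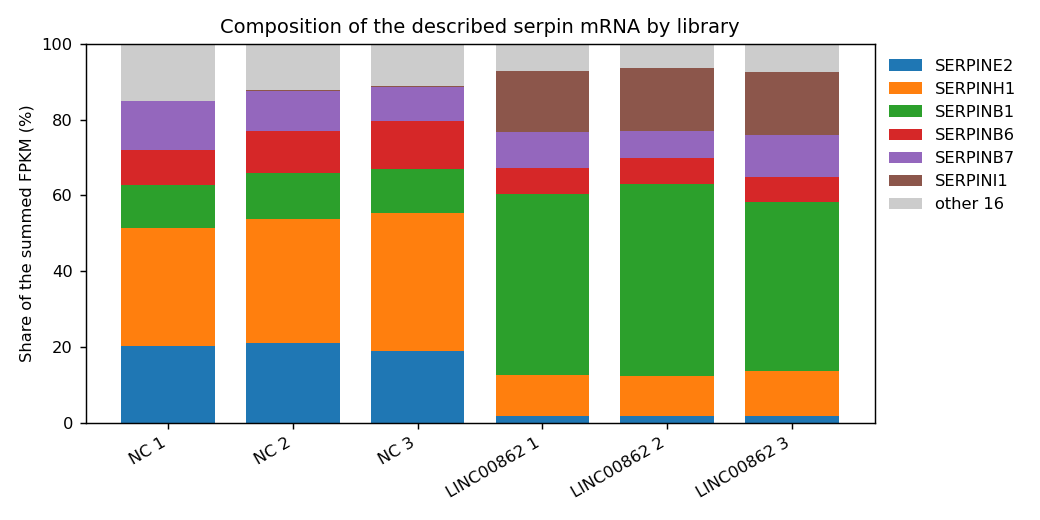
Share of the summed FPKM of the 22 serpin genes (vertical axis, percent) in each of the 6 libraries, stacked by gene, with the 16 genes of small share in grey. SERPINH1 is the largest block in the 3 NC libraries and SERPINB1 the largest in the 3 LINC00862 libraries, where SERPINI1 appears at 16.4% on average.

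In order of FPKM, the NC libraries ran SERPINH1 and SERPINE2, each apart from the next, and then SERPINB1, SERPINB6 and SERPINB7, whose ranges overlapped. SERPINB8 followed below these, and SERPINB9 and SERPINA1, which overlapped each other, came after it. The LINC00862 libraries ran SERPINB1 and SERPINI1, each apart from the next, then SERPINH1 overlapping SERPINB7, SERPINB6 apart from its neighbours, SERPINB4 overlapping SERPINB8, and SERPINE2. None of the rest of the 22 had a mean of 1 FPKM in either group. The length behind the deposited FPKM was close to that of all exons joined, which for SERPINB6 is 13201 bases in GENCODE 29 against 5620 for its longest transcript. Scaled by the longest transcript, SERPINB6 moved to rank 3 in NC with a range that overlapped SERPINE2, and in LINC00862 the range of SERPINI1 overlapped those of SERPINH1 and SERPINB6.

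**Figure D3:**
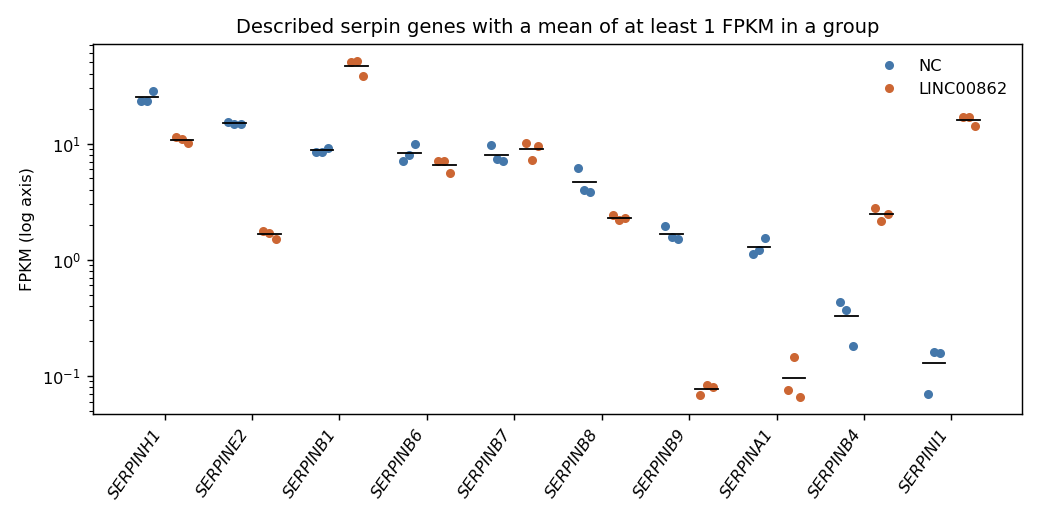
FPKM (vertical log axis) of the 10 serpin genes with a mean of at least 1 FPKM in a group, with a point for each library and a line at the group mean, ordered by the NC mean. SERPINE2 is lower in LINC00862 (a mean of 1.66 against 14.97 in NC) and SERPINI1 higher (16.0 against 0.129), while the points of SERPINB6 and SERPINB7 overlap between the groups.

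SERPINE2 (ENSG00000135919, chr2:223975045-224039290, hg38) encodes protease nexin 1, a cell-surface inhibitor of thrombin and urokinase. Its FPKM was 15.3, 14.8 and 14.8 in NC and 1.77, 1.71 and 1.50 in LINC00862, so the libraries within each group lay close together. The log2 fold change was -3.00 (SE 0.14, edgeR adjusted p = 2.7e-07), or 8.00-fold lower. SERPINE3, a little studied member, had counts of 9, 5 and 7 in NC and of 7, 22 and 17 in LINC00862 and was left out of the main comparison by its low counts. It overlaps INTS6 on the opposite strand, and whether counting used the strand is not stated.

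From lists of proteases and receptors that ran in both directions, genes of the urokinase system and of serpin clearance are given here with their values. PLAU, the gene of urokinase, had an FPKM of 65.1, 67.4 and 71.1 in NC and of 0.380, 0.663 and 0.373 in LINC00862, with a log2 fold change of -7.00 (SE 0.26, edgeR adjusted p = 9.8e-08). PLAUR, the urokinase receptor, fell from 15.0 ± 2.26 to 3.06 ± 0.541 FPKM (SD, n = 3), by 2.12 on the log2 scale (SE 0.19). LRP1, the endocytic receptor that clears serpin and protease complexes, went from 11.7 ± 3.60 to 0.802 ± 0.222 FPKM (SD, n = 3), a log2 fold change of -3.68 (SE 0.24). PLAT, the gene of tissue plasminogen activator, was named after its values were seen because SERPINI1 inhibits its product. It went from 2.87 ± 0.267 to 0.101 ± 0.0499 FPKM (SD, n = 3), a log2 fold change of -4.60 (SE 0.38). These genes were picked with their values known, and the clearance receptor genes VLDLR (0.45, SE 0.14) and LRP2 (6.47, SE 0.89) were called higher. VLDLR had a mean of 2.70 FPKM in NC and 3.25 FPKM in LINC00862, and its groups overlapped. LRP2 had 4, 0 and 0 counts in NC and a mean of only 0.105 FPKM in LINC00862, so its value depends on the prior count of the fit. Among 16 receptors, cofactors and secretion factors tested, 8 were higher, 7 lower and 1 did not pass, beside 34.4% higher and 29.8% lower over all genes tested, with a median log2 fold change of 0.18. In that list the endothelial protein C receptor gene PROCR (-1.89, SE 0.19) and LRP8 (-1.86, SE 0.33) fell, and LMAN1, a cargo receptor of the secretory pathway (1.96, SE 0.19), and SYVN1, a ubiquitin ligase that clears misfolded proteins (1.74, SE 0.14), rose.

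Of 26 genes for proteases that serpins inhibit and related proteases, 14 were higher, 8 lower and 4 did not pass, beside the same 34.4% and 29.8% over all genes, with a median log2 fold change of 1.47. Beside PLAU, the largest changes among those at 1 FPKM or more were rises of membrane-anchored or secreted trypsin-like proteases. HPN (hepsin) went from 0.0157 ± 0.0160 to 11.4 ± 0.589 FPKM, PRSS22 (tryptase epsilon) from 0.0210 ± 0.0202 to 11.5 ± 0.326 FPKM, PRSS8 (prostasin) from 0.118 ± 0.00631 to 37.1 ± 7.40 FPKM and ST14 (matriptase) from 0.0700 ± 0.0351 to 10.7 ± 2.51 FPKM (SD, n = 3). The coagulation protease gene F7 went from 0.0271 ± 0.0278 to 5.43 ± 0.269 FPKM (SD, n = 3). Their log2 fold changes were 9.45 (SE 0.45) for HPN, 9.07 (SE 0.49) for PRSS22, 8.41 (SE 0.22) for PRSS8, 7.68 (SE 0.63) for F7 and 7.40 (SE 0.32) for ST14. HPN had 8, 0 and 4 counts in NC, PRSS22 0, 4 and 7, and F7 0, 7 and 15. Their values rest on these few counts, so the order of the genes by size of change is uncertain.

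Of 18 tested protease inhibitors outside the serpin family, 11 were higher, 1 was lower and 6 did not pass, where 34.4% of all genes tested were higher and 29.8% lower. The share called in either direction was close to the 64.2% of all genes. The median log2 fold change was 4.39, or 3.67 with AMBP and PI15, which had no count in NC, set at the bound that 3 counts over the group allow. SLPI, the secretory leukocyte protease inhibitor, went from 0.794 ± 0.176 to 206 ± 17.8 FPKM (SD, n = 3). SPINT1 and SPINT2, the Kunitz inhibitors of matriptase and hepsin, went from 0.744 ± 0.0863 to 41.1 ± 8.16 FPKM and from 0.966 ± 0.0649 to 99.4 ± 15.3 FPKM (SD, n = 3). SPINK1, a trypsin inhibitor of the pancreas and of hepatoma cells, reached 90.3 ± 7.17 FPKM, elafin (PI3) 26.3 ± 3.98 FPKM and ITIH2, a heavy chain of inter-alpha-trypsin inhibitor, 23.4 ± 2.00 FPKM (SD, n = 3), each from under 1 FPKM in NC. Whether these inhibitors and the serpins differ in response was not tested.

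**Figure D4:**
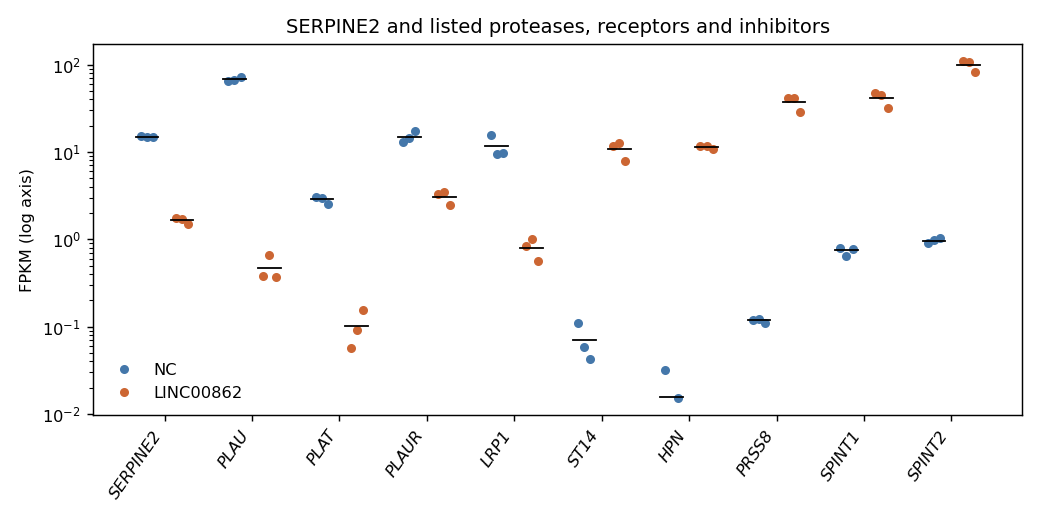
FPKM (vertical log axis) of SERPINE2 and the genes PLAU, PLAT, PLAUR and LRP1 and of the genes ST14, HPN, PRSS8, SPINT1 and SPINT2, with a point for each library that had a count and a line at the group mean. The genes were picked with their values known. The first 5 are lower in LINC00862 and the other 5 are higher, without overlap, and HPN had no count in NC library 2.

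SERPINI1 (ENSG00000163536, chr3:167735243-167825569) had the lowest adjusted p among the serpins that rose. It encodes neuroserpin, an inhibitor of tissue plasminogen activator best known from neurons. Its FPKM was 0.0698, 0.162 and 0.157 in NC and 16.9, 17.0 and 14.1 in LINC00862, so a gene with 10, 23 and 23 counts in NC reached 2754, 2389 and 2008 counts. The log2 fold change was 7.06 (SE 0.32, edgeR adjusted p = 2.6e-07), a 134-fold higher level. By the gene spans of the deposited table, SERPINI1 starts 304 bases from PDCD10, a gene on the opposite strand whose product takes part in vascular integrity. The start of SERPINI1 in RefSeq lies further inside its span. PDCD10 was looked up after the SERPINI1 values were seen. PDCD10 had 2528, 2936 and 2297 counts in NC and 6002, 5168 and 4914 in LINC00862, with a log2 fold change of 1.14 (SE 0.15, edgeR adjusted p = 1.7e-04), so both genes of the head-to-head pair were higher. SERPINI2, on the same chromosome, was listed with no count in NC and with 10, 0 and 0 counts in LINC00862.

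SERPINH1 (ENSG00000149257, chr11:75562056-75572783), also called HSP47, is the collagen chaperone of the endoplasmic reticulum. Its FPKM was 23.5, 23.2 and 28.5 in NC and 11.4, 10.97 and 10.1 in LINC00862. The groups did not overlap, and the log2 fold change was -1.04 (SE 0.15, edgeR adjusted p = 3.2e-04), a 2.06-fold lower level that was not called in a test against a fold change of 2 (edgeR adjusted p = 0.351). Among 16 collagen genes and partners in collagen folding, 4 were higher, 8 lower and 4 did not pass, where 34.4% of all genes were higher and 29.8% lower, with a median log2 fold change of -0.88. COL5A1 (-5.67, SE 0.22), COL4A2 (-4.54, SE 0.19) and COL4A1 (-3.32, SE 0.24) had the largest falls. The collagen modifying enzymes PLOD2 (-2.49, SE 0.19) and P3H1 (-2.15, SE 0.17) also fell, whereas COL1A1, the main chain of type I collagen, rose by 2.32 (SE 0.22). FKBP10 (2.06, SE 0.16), MIA3 (1.07, SE 0.19) and PPIB (0.95, SE 0.23) were called higher too. The summed FPKM of the 16 genes was 699 to 868 in NC and 890 to 1022 in LINC00862.

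The clade B genes lie in a cluster on chromosome 6 and another on chromosome 18, and the clade A genes in 1 on chromosome 14. Each cluster held genes called higher and genes called lower, where 34.4% of all genes tested were higher and 29.8% lower. On chromosome 6, SERPINB1 was higher, SERPINB9 lower and SERPINB6 not called. On chromosome 14, SERPINA3 and SERPINA5 were higher and SERPINA1 lower. On chromosome 18, SERPINB4 was higher, SERPINB2 and SERPINB8 were lower, and SERPINB3, SERPINB5 and SERPINB7 were not called.

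**Figure D5:**
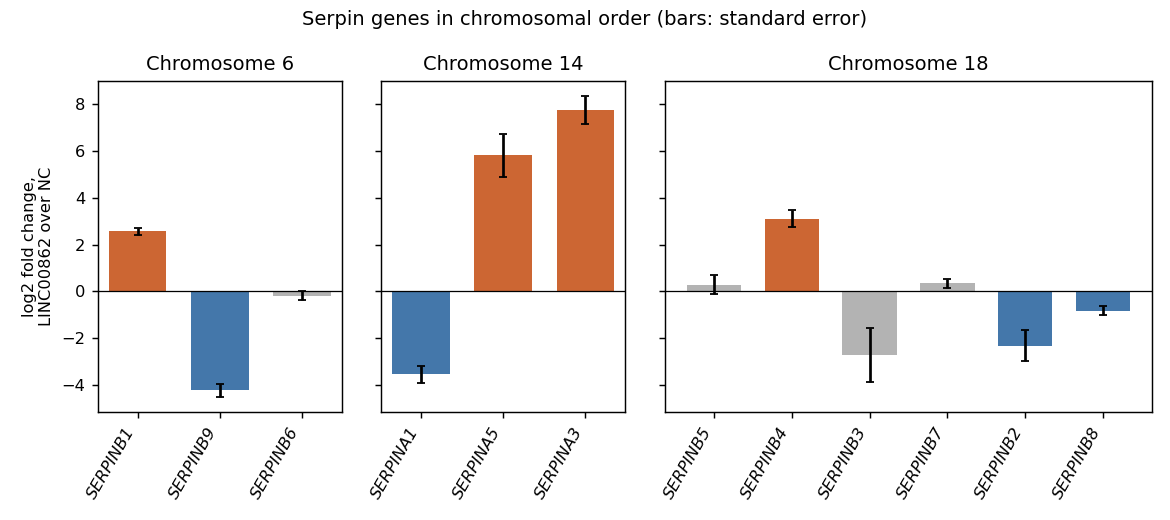
Log2 fold change of LINC00862 over NC (vertical axis, bars for the standard error) for serpin genes in their order along chromosomes 6, 14 and 18, with orange for called higher, blue for called lower and grey for not called. Every cluster holds both orange and blue bars, from -4.22 (SERPINB9) to 2.58 (SERPINB1) on chromosome 6 and from -3.55 (SERPINA1) to 7.75 (SERPINA3) on chromosome 14.

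SERPINB1 and SERPINB9 illustrate the opposite moves within 1 cluster, and the 250 bases before their start sites in RefSeq (GRCh38.p14) are printed to show how alike these regions are in composition. SERPINB1 lies at chr6:2841864-2842113 and SERPINB9 at chr6:2903310-2903559, both on the minus strand, just outside the gene spans, and capitals mark matches on either strand to GGGCGG, the GC box, and to TATAAA, the TATA box.
SERPINB1: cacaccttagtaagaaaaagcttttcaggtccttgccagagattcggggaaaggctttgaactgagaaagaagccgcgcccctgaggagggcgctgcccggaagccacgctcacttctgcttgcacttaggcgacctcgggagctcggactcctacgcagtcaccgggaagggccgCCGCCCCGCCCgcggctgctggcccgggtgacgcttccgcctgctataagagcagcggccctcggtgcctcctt
SERPINB9: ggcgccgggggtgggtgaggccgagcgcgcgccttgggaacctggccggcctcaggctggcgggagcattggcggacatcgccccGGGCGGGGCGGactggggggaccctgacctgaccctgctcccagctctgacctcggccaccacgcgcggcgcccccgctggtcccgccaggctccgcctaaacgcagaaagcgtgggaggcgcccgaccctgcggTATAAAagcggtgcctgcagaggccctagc
Each held 2 overlapping GC boxes, and SERPINB9 also held a match to TATAAA. Only exact letters were counted, so a near match such as tataag toward the end of the SERPINB1 sequence was not marked. Of 35116 RefSeq promoters of this length, 42.6% held a GC box and 10.7% a TATA box. CG dinucleotides numbered 21 in SERPINB1 and 27 in SERPINB9, against a median of 11, and neither held TGANTCA, the AP-1 motif found in 6.57% of all. Of the 22 serpin genes, 18 had an entry, and SERPINC1, SERPINF1, SERPINF2 and SERPING1 had none. The chromosome 18 entries held 0 to 13 CG dinucleotides each.

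SERPINB1 (ENSG00000021355, chr6:2832332-2841863) encodes the inhibitor of neutrophil elastase, cathepsin G and proteinase 3. Its FPKM was 8.50, 8.51 and 9.20 in NC and 50.1, 51.6 and 38.1 in LINC00862, which made it the most abundant serpin in each LINC00862 library. The log2 fold change was 2.58 (SE 0.15, edgeR adjusted p = 1.3e-06), or 5.97-fold higher. SERPINB9 (ENSG00000170542, chr6:2887270-2903309) encodes the inhibitor of granzyme B that protects cells from cytotoxic lymphocytes. Its FPKM was 1.95, 1.56 and 1.51 in NC and 0.0677, 0.0840 and 0.0793 in LINC00862. This was the largest fall among the 18 serpins tested, with a log2 fold change of -4.22 (SE 0.28, edgeR adjusted p = 2.6e-06), or 18.7-fold lower. Its pseudogene SERPINB9P1 went the other way, from 107, 88 and 97 counts in NC to 749, 731 and 663 in LINC00862 (log2 fold change 2.97, SE 0.21), and reads shared between the gene and its pseudogene could be assigned to either. SERPINB6 (ENSG00000124570, chr6:2948159-2971777), a cytoplasmic inhibitor of trypsin-like proteases, had an FPKM of 7.05, 7.96 and 9.99 in NC and of 7.12, 7.10 and 5.55 in LINC00862. Its groups overlapped, and its log2 fold change of -0.18 (SE 0.18, edgeR adjusted p = 0.416) was 0.03 with upper quartile scaling.

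SERPINB3 and SERPINB4, the squamous cell carcinoma antigens, are near-identical neighbours that differ in the proteases they inhibit, SERPINB3 acting on cathepsins such as cathepsin L and SERPINB4 on serine proteases such as cathepsin G. Their 250 bases before the start sites (RefSeq, GRCh38.p14) are printed because their counts went in different directions. SERPINB3 lies at chr18:63661894-63662143 and SERPINB4 at chr18:63644257-63644506, both on the minus strand, and capitals mark the 3 positions that differ.
SERPINB3: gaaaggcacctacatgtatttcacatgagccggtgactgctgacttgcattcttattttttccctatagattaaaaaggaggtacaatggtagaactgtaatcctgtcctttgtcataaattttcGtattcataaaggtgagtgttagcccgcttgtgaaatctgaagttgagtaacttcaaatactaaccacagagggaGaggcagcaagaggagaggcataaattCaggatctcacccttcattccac
SERPINB4: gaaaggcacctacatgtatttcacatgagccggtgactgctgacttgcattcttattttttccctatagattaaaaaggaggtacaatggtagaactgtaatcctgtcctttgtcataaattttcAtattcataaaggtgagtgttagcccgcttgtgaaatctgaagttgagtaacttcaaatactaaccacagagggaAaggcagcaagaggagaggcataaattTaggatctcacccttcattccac
These regions were identical at 98.8% of their bases. The coding sequences of GENCODE 29 were identical at 95.2% of 1170 bases, with 56 differences, whereas the next most alike pair of members, SERPINB8 and SERPINB9, reached 72.7%. The 60-base window with the most differences, 10 of them in capitals, lies in exon 8 at chr18:63655819-63655878 for SERPINB3 and chr18:63637881-63637940 for SERPINB4 (GRCh38, minus strand).
SERPINB3: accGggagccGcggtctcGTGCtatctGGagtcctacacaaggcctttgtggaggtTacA
SERPINB4: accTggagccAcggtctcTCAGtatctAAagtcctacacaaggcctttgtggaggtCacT
The longest identical run was 129 bases, and 0 of the 1021 windows of 150 bases, the read length, occurred in both coding sequences, so a full-length exact read within the coding sequence could be told apart, while shorter alignments could be shared.

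SERPINB4 (ENSG00000206073, chr18:63637259-63644256) had an FPKM of 0.433, 0.367 and 0.181 in NC and of 2.81, 2.16 and 2.49 in LINC00862. The groups were far apart, with a log2 fold change of 3.10 (SE 0.36, edgeR adjusted p = 7.6e-05), or 8.59-fold higher. SERPINB3 (ENSG00000057149, chr18:63655197-63661893) had 44, 34 and 49 counts in NC and 19, 0 and 0 counts in LINC00862. Its FPKM did not overlap between the groups, but its log2 fold change of -2.72 (SE 1.14) did not pass (edgeR adjusted p = 0.0626). Library LINC00862 replicate 1 held all of its counts in that group, and without that library the group had no count and the value of -8.34 (edgeR adjusted p = 0.0011) depends on the prior count of the fit. SERPINB3 made up 43.6%, 41.5% and 67.1% of the counts of the pair in the NC libraries and 4.29%, 0% and 0% in the LINC00862 libraries. Counted as 1 gene, an alternative added after seeing the data, the pair had 101, 82 and 73 counts in NC and 443, 282 and 330 in LINC00862, a log2 fold change of 2.14 (SE 0.27, edgeR adjusted p = 1.3e-04).

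Of the other chromosome 18 genes, SERPINB8 (ENSG00000166401, chr18:63970029-64019779), an inhibitor of furin, had an FPKM of 6.14, 3.97 and 3.86 in NC and of 2.41, 2.19 and 2.30 in LINC00862. It was lower in each LINC00862 library, by 0.82 on the log2 scale (SE 0.18, edgeR adjusted p = 0.0033), but was not called against a fold change of 2 (edgeR adjusted p = 0.888). HMSD overlaps SERPINB8 on the same strand and had 172, 255 and 304 counts in NC and 6, 23 and 28 in LINC00862, so reads of the shared stretch could count for either gene. SERPINB7 (ENSG00000166396, chr18:63752935-63805376), an epidermal and mesangial serpin, had an FPKM of 9.66, 7.38 and 7.09 in NC and of 10.1, 7.27 and 9.48 in LINC00862. Its groups overlapped, with a log2 fold change of 0.34 (SE 0.19, edgeR adjusted p = 0.133) that was called at 0.50 without LINC00862 replicate 2 (edgeR adjusted p = 0.0457) and at 0.56 with upper quartile scaling (edgeR adjusted p = 0.0254). SERPINB2, plasminogen activator inhibitor 2, had 21, 73 and 50 counts in NC and 14, 10 and 4 in LINC00862. It was called lower (log2 fold change -2.32, SE 0.66, edgeR adjusted p = 0.0128), but not without NC replicate 2 (-1.87, edgeR adjusted p = 0.0614). SERPINB5 (maspin), a non-inhibitory serpin of epithelial cells, had 75 to 99 counts in NC and 47 to 139 in LINC00862 and did not pass (log2 fold change 0.29, SE 0.41, edgeR adjusted p = 0.564).

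The plasma serpins were low in both groups. SERPINA1 (ENSG00000197249, chr14:94376747-94390693) encodes antitrypsin, the main inhibitor of neutrophil elastase in blood and a typical hepatocyte product. Its FPKM was 1.11, 1.22 and 1.53 in NC and 0.0751, 0.144 and 0.0658 in LINC00862. It was lower where the hepatocyte marker sum was higher, with a log2 fold change of -3.55 (SE 0.36, edgeR adjusted p = 3.2e-05), or 11.7-fold lower. SERPINA3 (antichymotrypsin), an acute-phase protein of the liver that inhibits cathepsin G, had 1, 0 and 1 counts in NC and 202, 135 and 145 in LINC00862. The ratio of the summed counts, scaled by the library totals, was 229.6 with an exact 95% interval of 63.2 to 1901 that covers counting error only, and its mean level stayed at 0.450 ± 0.0653 FPKM (SD, n = 3) in LINC00862. Its fitted log2 fold change was 7.75 (SE 0.60, edgeR adjusted p = 5.9e-06), a value that depends on the prior count of the fit.

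SERPINA5, the protein C inhibitor, had 4, 0 and 0 counts in NC and 108, 51 and 71 in LINC00862, a ratio of 54.8 (exact 95% interval 21.1 to 203, counting error only). The log2 fold change was 5.82 (SE 0.92, edgeR adjusted p = 4.7e-04), and 9.27 without NC replicate 1, the only NC library with a count, a value that depends on the prior count. In the deposited table SERPINA5 spans chr14:94561442-94593115, which also covers the place of SERPINA4 (chr14:94561442-94569906 in RefSeq, GRCh38.p14), so its counts may include reads of that neighbour.

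The remaining plasma or low-level serpins gave no call. SERPINF1 (pigment epithelium-derived factor) had 49 to 63 counts in NC and 19 to 61 in LINC00862, SERPINF2 (alpha-2-antiplasmin) 8 to 39 and 4 to 20, and SERPING1 (the C1 inhibitor) 0 to 44 and 18 to 69. Their log2 fold changes of -0.45 (SE 0.53), -1.14 (SE 0.74) and 1.04 (SE 1.00) did not pass, with edgeR adjusted p of 0.478, 0.203 and 0.386. SERPINC1 (antithrombin) was listed with no count in NC and with 4, 7 and 0 counts in LINC00862. SERPIND1 (heparin cofactor II) had 11, 0 and 0 counts in NC and 0, 3 and 0 in LINC00862, and lies opposite PI4KA, which had 2675 to 6552 counts per library. The ratio of its summed counts was 0.260 (exact 95% interval 0.0465 to 0.984, counting error only), with all of the NC counts in 1 library. SERPINC1, SERPIND1, SERPINE3 and SERPINI2 were the 4 members that the filter on low counts kept out of the main comparison. In a fit of every gene with at least 1 count, their edgeR adjusted p was 0.134 for SERPINC1, 0.589 for SERPIND1, 0.24 for SERPINE3 and 0.196 for SERPINI2.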

How the data were processed

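HCCLM3 cells were sequenced as 3 NC and 3 LINC00862 libraries of polyadenylated RNA, in which the second strand was removed by dUTP, with paired 150-base reads. The authors deposited raw counts per gene and FPKM, scaled by them for gene length and mapped fragments. The submitters' processing notes name hg38, cutadapt 1.9, HISAT2 2.0.4, UMI-tools, StringTie 1.3.4d, edgeR and DESeq2, with no roles. Whether counting used the strand is not given in the sources used here. Value columns were matched to samples by name.

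All genes were tested with edgeR 4.0.16 in R 4.3.3 (filterByExpr, TMM, quasi-likelihood test, Benjamini-Hochberg adjustment, false discovery rate 0.05), and only serpins and listed genes are printed. Standard errors were derived from the test statistic. Floors of 3 counts and exact 95% intervals cover counting error only. Alternatives were DESeq2 1.42.0, limma 3.58.1 on log2(FPKM + 1) and log2(FPKM + 0.1), other scalings, a replicate block, no filter, other thresholds, omission of each library, and, added after seeing the data, SERPINB3 and SERPINB4 as 1 gene and shares per longest transcript. Sequences came from RefSeq (GRCh38.p14) and GENCODE 29.

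Every member is accounted for, those with a mean of at least 1 FPKM in a group by library, and those with no count in a group by name. From each gene list up to 6 genes were named by rule, those with the largest change among called genes at 1 FPKM or more. PLAT, VLDLR, LRP2, FKBP10, MIA3 and PPIB were named outside this rule with their values known, and AMBP and PI15 for having no count in NC. 1 gene that met the rule is not reported here and was left out of serpin counts, sums and shares. The members and lists were chosen with earlier results of these data known.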

Additional observations from a re-analysis of the deposited data

How the results depend on the processing

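The alternatives gave 272 values of serpin log2 fold changes, of which 257 kept their direction and their side of the threshold, and 11 of the 18 serpin genes tested kept both under every alternative run. Serpin genes called higher numbered 5 or 6 and those called lower 4 to 7. The number of all genes called, 13321, was 8010 in a test against a fold change of 2, and 12063 to 14285 when a library was left out. SERPINB6 reversed to 0.026 with upper quartile scaling and ranged from -0.33 to 0.014 when a library was left out, SERPINB5 ranged from -0.019 to 0.60, and SERPINB3 was 2.14 when counted with SERPINB4. The cause was not tested.

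Calls were lost for SERPINB2 under a replicate block, without NC replicate 2 and at a false discovery rate of 0.01, and for SERPINB8 and SERPINH1 against a fold change of 2. Calls were gained for SERPINB3 under a replicate block, in both limma fits and without LINC00862 replicate 1, and for SERPINB7 with upper quartile scaling and without LINC00862 replicate 2. With the replicate block the log2 fold change of SERPINB2 was -2.23 (edgeR adjusted p = 0.0541), that of SERPINB3 was -4.05 (edgeR adjusted p = 0.0418), and 12098 genes were called. Where an NC and a LINC00862 library had the same number, their deviations correlated at -0.096, -0.12 and -0.069. The pairings of NC 1 with LINC00862 2, NC 2 with LINC00862 3 and NC 3 with LINC00862 1 gave 0.15, 0.18 and 0.18. The remaining pairings gave -0.059, -0.094 and -0.079. Deviations within a group of 3 constrain each other, so these values cannot decide whether any libraries shared a culture or batch. Scaling moved the median log2 fold change of all genes from 0.11 (TMM) to 0.32 (upper quartile), 0.16 (DESeq2) and -0.05 (library size).

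As a share of serpin CPM, SERPINH1 was 31.7% in NC and 17.3% in LINC00862, SERPINB1 5.38% and 35.8%, SERPINE2 27.2% and 3.77%, and SERPINI1 0.0570% and 8.61%. Per kilobase of the longest transcript, SERPINH1 was 37.05% and 14.9%, SERPINB1 8.46% and 41.6%, SERPINE2 18.6% and 1.92%, and SERPINI1 0.123% and 13.8%. The filter on low counts left SERPINC1, SERPIND1, SERPINE3 and SERPINI2 out, and without it their edgeR adjusted p was 0.134 to 0.589.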
